A study of Mus musculus with 50 samples.

Results

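The serpins are a gene family named for serine protease inhibitors. Every spot that the platform annotation gives a single symbol beginning with Serpin was taken, which gave 28 genes on each of 2 spotted array platforms. The 28 genes had 30 of the 19152 spots of the larger platform and 29 of the 18240 spots of the smaller one. Genes were measured as the log2 ratio of the sample channel to a reference channel, less the median of that array, and the spots of a gene were averaged.

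The study set RNA of mouse tracheal perfusate against RNA of whole lung, with 5 groups of 5 arrays in each tissue and 50 arrays in all. In each tissue 3 groups carried the cytokine IL-13 and differed in the transcription factor Stat6: Stat6+/- with a functional allele, Stat6-/- without one, and Stat6-/- marked Epi+. The mark Epi+ is known from mice whose airway epithelium regains Stat6 through a transgene, although the labels give the mark alone and not its promoter. A further group had the allergen ovalbumin (OVA) and a control group had saline (PBS). The labels state neither the Stat6 genotype of the OVA and PBS groups nor age, sex or how IL-13 was supplied. The labels do not tie arrays to separate animals, and the p-values therefore reflect the spread between arrays, which may be technical. The whole lung OVA and PBS arrays lay on the smaller platform with a reference of their own, so their levels are not set against those of the other groups.

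A serpin inhibits by offering a protease a loop as bait. The protease cuts the loop, the serpin snaps into a new fold, and the protease is trapped and distorted. Most clade A, C, D, F and G serpins are secreted, many of them by the liver, and hold clotting, fibrinolysis, complement and neutrophil proteases in check. Clade B serpins act mostly inside cells and at epithelial surfaces, where several inhibit granzymes, elastase-like enzymes or lysosomal cathepsins. Some family members have lost the inhibitory function and act as hormone carriers, chaperones or growth regulators. IL-13 signals to airway epithelium through Stat6 and is known there for mucous metaplasia.

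Between 15693 and 18655 spots per array had a value, and array medians lay between -0.96 and 0.30 before centring. Il13 itself was 2.72 ± 0.21 (SE) higher on the log2 scale in IL-13 Stat6-/- perfusate than in PBS perfusate, which is why the ratio, whose direction the sources do not state, was read as sample over reference. Il13 was also unequal among the IL-13 groups of perfusate, lower in Stat6+/- than in Stat6-/- by a log2 difference of -0.99 ± 0.21 (limma, Benjamini-Hochberg adjusted p = 0.0118). Goblet cell markers followed the labels of Stat6. In perfusate 4 of 7 such markers were higher in Stat6+/- than in Stat6-/- and none lower, and in whole lung 5 of 6.

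Promoter sequence is shown for some serpins that changed in perfusate. The reason is that 2 of them, side by side in the genome, hold a motif match of the same letters. It lies before the gene's start in Serpina5 and after it in Serpina12. Of the 28 genes, 23 had an entry among RefSeq promoters (build GRCm38.p6, 250 bases before to 50 bases after a gene's start), with 27 promoters in all. They were searched for TTCNNNNGAA, the palindrome with the spacing known for Stat6, which reads the same on both strands. It was found in 5 of the 27 serpin promoters, those of Serpina12, Serpina5, Serpinb7, Serpinb1b and Serpinb6a, and in 6.95% of all 32851 promoters of the same length. The related TTCNNNGAA was found in 5 serpin promoters and in 8.30% of all. Capitals mark the TTCNNNNGAA match. The Serpina5 window is the 250 bases before the gene's start, chr12:104100863-104101112 on the plus strand, with the match beginning 163 bases before the start. The Serpina12 window is 30 bases, chr12:104044403-104044432 on the minus strand, with the match beginning 21 bases after the start. The windows of Serpinf1, chr11:75422624-75422873 on the minus strand, and Serpinb11, chr1:107362064-107362313 on the plus strand, are the 250 bases before each start.
Serpina5: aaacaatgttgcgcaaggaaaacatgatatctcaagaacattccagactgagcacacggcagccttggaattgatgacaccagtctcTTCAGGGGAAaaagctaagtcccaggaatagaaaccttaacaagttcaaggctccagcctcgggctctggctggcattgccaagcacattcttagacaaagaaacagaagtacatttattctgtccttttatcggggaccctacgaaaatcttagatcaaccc
Serpina12: aggaggatccTTCAGGGGAAgtggtgtggc
Serpinf1: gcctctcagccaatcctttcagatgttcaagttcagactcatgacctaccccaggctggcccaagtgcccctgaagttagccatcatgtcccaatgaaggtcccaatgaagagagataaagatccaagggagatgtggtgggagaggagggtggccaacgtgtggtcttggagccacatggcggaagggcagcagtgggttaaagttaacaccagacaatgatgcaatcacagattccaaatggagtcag
Serpinb11: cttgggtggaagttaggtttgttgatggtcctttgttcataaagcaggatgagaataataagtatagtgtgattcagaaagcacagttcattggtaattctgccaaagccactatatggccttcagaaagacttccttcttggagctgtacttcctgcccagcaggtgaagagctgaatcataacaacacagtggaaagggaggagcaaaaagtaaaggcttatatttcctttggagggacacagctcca
The matches of Serpina5 and Serpina12 were the same 10 letters, TTCAGGGGAA. Serpinf1, Serpinb11 and Serpinb12 held no match in their windows. A match describes letters in a window and was not tested as a binding site.

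In tracheal perfusate with IL-13, serpins moved in both directions with Stat6. In Stat6+/- against Stat6-/-, Serpinb12 and Serpinb11 of clade B rose, and the secreted Serpinf1, Serpina12 and Serpina5 fell. These were 5 of 27 serpins tested, called at an adjusted p under 0.05, against 3.07% of all 15831 features. The median difference of the 27 was 0.003, beside -0.017 over all features. In Epi+ against Stat6-/- the called serpins were Serpinf1 and Serpina12, both lower, which is 2 of 27 against 0.474% of all features. These comparisons share the Stat6-/- arrays.

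**Figure D1:**
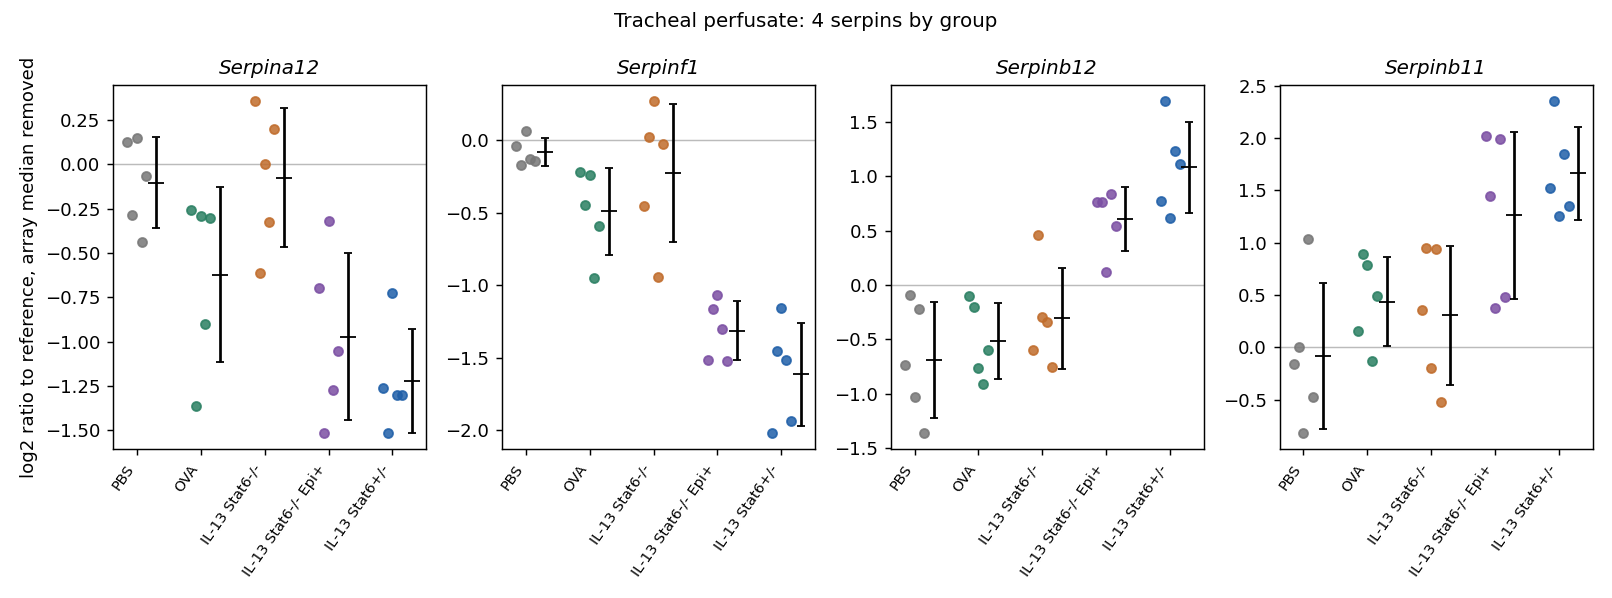
Log2 ratio to the reference, less the array median, for 4 serpins in the 5 perfusate groups. Points are arrays, and the bar beside them is the group mean with its SD over 5 arrays. Serpinf1 lies below -1.0 in every Stat6+/- and Epi+ array and above it in every array of the other groups, and all Stat6+/- arrays of Serpinb12 exceed all those of OVA, PBS and Stat6-/-.

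Serpinf1 encodes pigment epithelium-derived factor, a secreted serpin that inhibits no protease and is known for blocking vessel growth. Its log2 levels in Stat6+/- perfusate were -2.02, -1.45, -1.16, -1.51 and -1.94, and in Stat6-/- perfusate -0.45, 0.02, 0.27, -0.94 and -0.03. Its levels in Epi+ perfusate were -1.51, -1.16, -1.07, -1.30 and -1.52. The Epi+ and Stat6+/- arrays overlapped, with 1 Epi+ array, at -1.07, above all of Stat6+/-, and no array of either group reached the lowest of Stat6-/-. Serpinf1 fell 2.62-fold in Stat6+/- against Stat6-/- (log2 difference -1.39 ± 0.18 SE, n = 5 and 5, limma adjusted p = 0.000153) and 2.13-fold in Epi+ against Stat6-/- (-1.09 ± 0.18, limma adjusted p = 0.00499). The Epi+ call was lost on uncentred values (adjusted p = 0.315) and with only the 2 groups in the fit (0.346), with a range from 0.0015 to 0.346 over 18 alternatives. The Stat6+/- call was lost with only the 2 groups in the fit (0.0756, from 4.78e-05).
The PBS arrays of Serpinf1 were tight, at -0.04, -0.17, 0.07, -0.13 and -0.14, and the OVA arrays read -0.22, -0.45, -0.24, -0.95 and -0.59. Against PBS the Serpinf1 difference was -1.53 ± 0.18 in Stat6+/- and -1.23 ± 0.18 in Epi+, both called with no overlap, and -0.14 ± 0.18 in Stat6-/- and -0.41 ± 0.18 in OVA, neither called.

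Serpina12 encodes vaspin, a secreted inhibitor of a kallikrein that is best known as an adipose tissue product. Its levels were -1.26, -1.51, -0.73, -1.30 and -1.30 in Stat6+/- perfusate and 0.35, -0.61, 0.00, -0.32 and 0.20 in Stat6-/- perfusate. In Epi+ perfusate they were -0.70, -1.51, -0.32, -1.27 and -1.05. All Stat6+/- arrays lay below all Stat6-/- arrays, whereas 1 Epi+ array, replicate 18, lay within the Stat6-/- range. Within every reference preparation, however, the Epi+ array lay below the Stat6-/- array. Serpina12 fell 2.21-fold in Stat6+/- (-1.14 ± 0.16, limma adjusted p = 0.000257) and 1.86-fold in Epi+ (-0.89 ± 0.16, limma adjusted p = 0.00816). The Epi+ call was lost on uncentred values (adjusted p = 0.439), without the reference block (0.256), without preparation 1.3 (0.0696) and with only the 2 groups in the fit (0.371), with a range from 0.00599 to 0.439 over 18 alternatives. The Stat6+/- call was lost on uncentred values (0.057) and with only the 2 groups (0.0791, from 0.000163).
In PBS its levels were 0.13, -0.29, 0.15, -0.44 and -0.07, and in OVA -0.26, -1.36, -0.29, -0.90 and -0.30. The OVA arrays were split, with replicates 29 and 31 well below the other three. Replicates 29 and 31 were hybridised against reference preparations 1.1 and 1.2. In PBS, Stat6-/- and Epi+ the arrays of these preparations also lay below all others of their group. In Stat6+/- this held for preparation 1.2 alone. Each preparation held 1 array of every perfusate group and entered the fit as a block. The difference from PBS was -1.12 ± 0.16 in Stat6+/- and -0.87 ± 0.16 in Epi+, both called, and -0.52 ± 0.16 in OVA (limma adjusted p = 0.215).

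Serpina5 encodes the protein C inhibitor, which also acts on urokinase and other trypsin-like proteases. Its levels were -0.30, -0.14, -0.65, 0.18 and -0.89 in Stat6+/- perfusate and 0.56, 0.53, -0.09, 0.52 and -0.09 in Stat6-/- perfusate. The ranges overlapped, since Stat6+/- replicate 7 lay above 2 Stat6-/- arrays. Within every reference preparation, however, the Stat6+/- array lay below the Stat6-/- array. The mean level of Serpina5 was -0.36 in Stat6+/-, 0.29 in Stat6-/-, -0.14 in Epi+, -0.04 in PBS and -0.23 in OVA. PBS thus lay between Stat6+/- and Stat6-/-, and no group was called against PBS. Serpina5 fell 1.56-fold in Stat6+/- against Stat6-/- (-0.65 ± 0.16, limma adjusted p = 0.0291). The call was lost without any one of Stat6-/- replicates 10, 13 and 14 or Stat6+/- replicates 4, 6 and 8, at adjusted p between 0.0605 and 0.102, and over 18 alternatives the adjusted p ran from 0.0228 to 0.454. The genes of Serpina9, Serpina12 and Serpina5 follow each other on chromosome 12.

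Serpinb12, an intracellular inhibitor of trypsin-like proteases, rose. Its levels were 0.78, 1.69, 0.61, 1.23 and 1.12 in Stat6+/- perfusate and -0.59, 0.46, -0.29, -0.34 and -0.75 in Stat6-/- perfusate. In Epi+ perfusate they were 0.76, 0.76, 0.12, 0.84 and 0.55. Every Stat6+/- array exceeded every Stat6-/- array, and the Epi+ arrays reached from the Stat6-/- range, with replicate 18, into the Stat6+/- range. Within every reference preparation the Epi+ array of Serpinb12 lay above the Stat6-/- array. The rise in Stat6+/- was 2.62-fold (1.39 ± 0.22, limma adjusted p = 0.0008), and the Epi+ difference of 0.91 ± 0.22 was not called (limma adjusted p = 0.073). The Stat6+/- call was lost with only the 2 groups in the fit (adjusted p = 0.0791, from 0.000448 to 0.0791 over 18 alternatives).
Against PBS, at -0.74, -0.10, -1.03, -0.22 and -1.36, both groups were higher without overlap, by 1.77 ± 0.22 in Stat6+/- and 1.29 ± 0.22 in Epi+. OVA arrays, at -0.10, -0.21, -0.76, -0.91 and -0.60, lay within the PBS range, and the difference was 0.17 ± 0.22. Serpinb12 was the mean of 2 spots that followed each other weakly, with a correlation of 0.11 over 38 arrays that share only the platform. Tested apart, both spots were called in Stat6+/- against Stat6-/-, at 1.08 and 1.70 (limma adjusted p = 0.0322 and 0.00097).

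Serpinb11, a clade B relative whose protease targets are little known, lies near Serpinb12 in the clade B cluster of chromosome 1. Its levels were 1.52, 2.35, 1.25, 1.85 and 1.36 in Stat6+/- perfusate and 0.36, 0.95, -0.19, 0.94 and -0.52 in Stat6-/- perfusate. In Epi+ perfusate they were 2.02, 1.44, 0.37, 2.00 and 0.48. The groups Stat6+/- and Stat6-/- did not overlap. Of the Epi+ arrays 3 lay at Stat6+/- levels and 2, replicates 18 and 20, at Stat6-/- levels. Replicates 18 and 20 were set against reference preparations 1.4 and 1.5, which also held the lowest arrays of Stat6+/-, Stat6-/- and PBS, though not of OVA. Within every preparation the Epi+ array lay above the Stat6-/- array. Serpinb11 rose 2.56-fold in Stat6+/- (1.36 ± 0.29, limma adjusted p = 0.0109), and the Epi+ difference was 0.96 ± 0.29 (limma adjusted p = 0.223). The Stat6+/- call was lost without the reference block (adjusted p = 0.0834, from 0.0064 to 0.0834 over 18 alternatives).
In PBS its levels were -0.16, 0.00, -0.82, 1.03 and -0.47, and in OVA 0.15, 0.89, 0.78, -0.13 and 0.49, so these groups overlapped. Serpinb11 was higher than PBS by 1.75 ± 0.29 in Stat6+/- and by 1.35 ± 0.29 in Epi+ (limma adjusted p = 0.017). The Epi+ call was lost without PBS replicate 22 or 24 (adjusted p = 0.0526 and 0.0523, from 0.0113 to 0.136 over 18 alternatives).

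Against PBS perfusate, 5 of 27 serpins were called in Stat6+/-, where 7.13% of all features were, and 4 of 27 in Epi+, where 3.01% were. The 4 of Epi+ were Serpinf1, Serpina12, Serpinb12 and Serpinb11, each also among the 5 of Stat6+/-, and both counts rest on the same PBS arrays. With only the 2 groups in the fit 0 serpins were called by limma in either, and on uncentred values 1 was called in Epi+. The fifth was Serpina9, a secreted serpin known from germinal centre B cells. Its levels were 0.11, 1.60, 2.26, 0.75 and 2.20 in Stat6+/- and 0.07, -0.28, 0.04, -0.92 and 0.03 in PBS, so the lowest Stat6+/- array barely cleared the highest of PBS. The rise was 3.02-fold (1.59 ± 0.39, limma adjusted p = 0.0175), and the call was lost without Stat6+/- replicate 5, 6 or 8 (adjusted p between 0.0534 and 0.0597, from 0.00152 to 0.111 over 18 alternatives). Serpina9 in Stat6-/- read 1.71, 0.74, 2.29, -0.17 and 1.15, 1.35 ± 0.39 above PBS and not called (limma adjusted p = 0.104). The mean level of Serpina9 was 1.14 ± 0.94 (SD, n = 5) in Stat6-/- and 1.38 ± 0.94 in Stat6+/-, and these groups overlapped.

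Without Stat6, no serpin was called against PBS: 0 of 27 by limma, with 5 at an unadjusted p under 0.05, where 0.619% of all features were called. Stat6+/- and Epi+ set against each other gave 0 of 27 by limma, with 1 at an unadjusted p under 0.05, and 0.0379% of all features. The differences were -0.30 ± 0.18 for Serpinf1, -0.25 ± 0.16 for Serpina12, 0.48 ± 0.22 for Serpinb12 and 0.40 ± 0.29 for Serpinb11, which does not show the groups to be alike.

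OVA perfusate gave 0 of 27 serpins called against PBS by limma, with 4 at an unadjusted p under 0.05, where 0.246% of all features were called. Of 7 goblet markers 2 rose there, Clca1 by 3.39 ± 0.31 and Muc5ac by 2.81 ± 0.31. OVA was therefore set directly against IL-13 Stat6+/- perfusate, a comparison added after these values were seen. It called 6 of 27 serpins, 3 higher and 3 lower, against 3.55% of all features. Serpinb12 was lower in OVA by a log2 difference of -1.60 ± 0.22 (limma adjusted p = 0.000341), Serpinb11 by -1.23 ± 0.29 and Serpina9 by -1.82 ± 0.39. Serpinf1 was higher in OVA by 1.13 ± 0.18 (limma adjusted p = 0.00144), Serpina12 by 0.60 ± 0.16 and Serping1 by 1.19 ± 0.31.
Serping1 encodes the C1 inhibitor of complement and the contact system. It read -0.25, -0.88, -0.60, -0.25 and -0.74 in OVA and -2.68, -1.82, -1.71, -1.99 and -0.48 in Stat6+/-. Stat6+/- replicate 8 lay inside the OVA range and the other 4 below it. The call for Serping1 (limma adjusted p = 0.0397, from 0.00966 to 0.252 over 18 alternatives) was lost without any one of OVA replicates 28, 29, 30 and 31 or Stat6+/- replicates 4, 5, 6 and 7. That for Serpina12 (0.0392, from 0.026 to 0.346) was lost without any one of OVA replicates 28, 30, 31 and 32 or Stat6+/- replicates 4, 5, 6 and 8. That for Serpinb11 (0.0237, from 0.00666 to 0.197) was lost without OVA replicate 28, 29 or 31 or Stat6+/- replicate 5, 6 or 8. Serpinb12, Serpinf1 and Serpina9 kept their calls without any single array, but none of the 6 was called with only these 2 groups in the fit, and 1, Serpinb12, on uncentred values.

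Perfusate is bulk RNA, in which fewer cells of a type and less RNA per cell cannot be told apart. Beside the serpin differences between Stat6+/- and Stat6-/- perfusate, club cell markers were lower in 2 of 6 cases and ciliated markers higher in 1 of 5. By limma none of 5 macrophage, 9 fibroblast and smooth muscle, 6 endothelial or 6 basal and squamous markers was called in that contrast, with 0, 1, 0 and 3 at an unadjusted p under 0.05. Against PBS, 3 of 9 fibroblast and smooth muscle markers were lower in Stat6+/- and 1 of 9 in Epi+, and none was higher. Of all features 7.13% and 3.01% were called there. The list medians did not fall, at 0.07 in Stat6+/- and 0.04 in Epi+, beside -0.03 and -0.05 over all features. The mean level of the fibroblast and smooth muscle markers lay between -0.49 and 0.06 in Stat6+/- and between -0.17 and 0.15 in PBS, and the part of these cells in the fall of Serpinf1 was not tested.

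**Figure D2:**
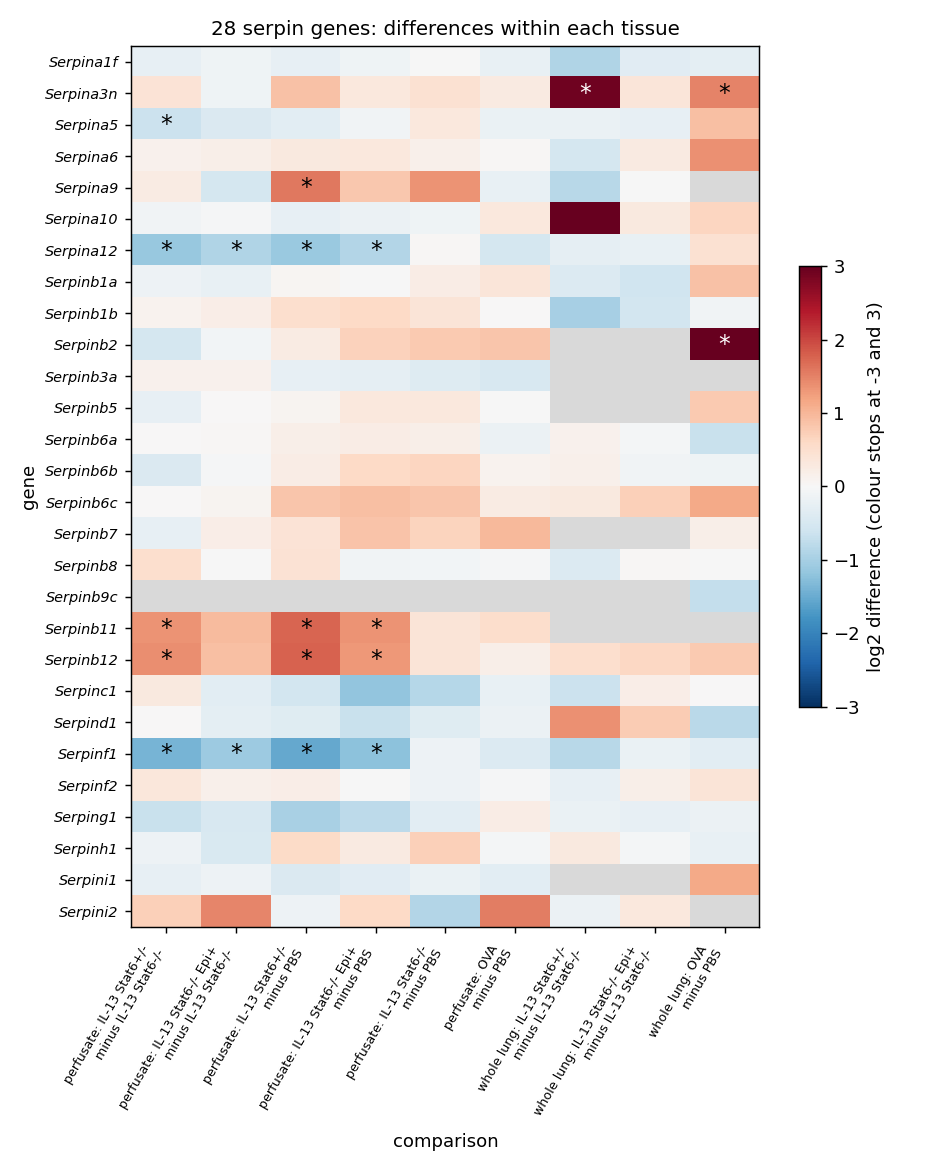
Log2 differences of the 28 serpins (rows) in 9 comparisons (columns), red for higher and blue for lower in the group named first, with colour stopping at -3 and 3. Grey means too few values for a test, and an asterisk marks an adjusted p under 0.05. In perfusate the asterisks fall on 6 genes, Serpinf1, Serpina12, Serpinb12, Serpinb11, Serpina5 and Serpina9, and in whole lung on Serpina3n and Serpinb2.

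In whole lung 2 serpins were called within the tissue. Serpina3n, an acute-phase serpin known to inhibit granzyme B and leukocyte elastase, was higher in Stat6+/- than in Stat6-/- lungs, both with IL-13, and rose with OVA. Serpinb2, an intracellular inhibitor of urokinase known from macrophages and stressed epithelium, rose with OVA. Serpina3n was the 1 serpin of 21 called in Stat6+/- against Stat6-/-, where 5.01% of all features were called, so the family's share was near the background. The median of the 21 was -0.20, beside -0.04 over all features.

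**Figure D3:**
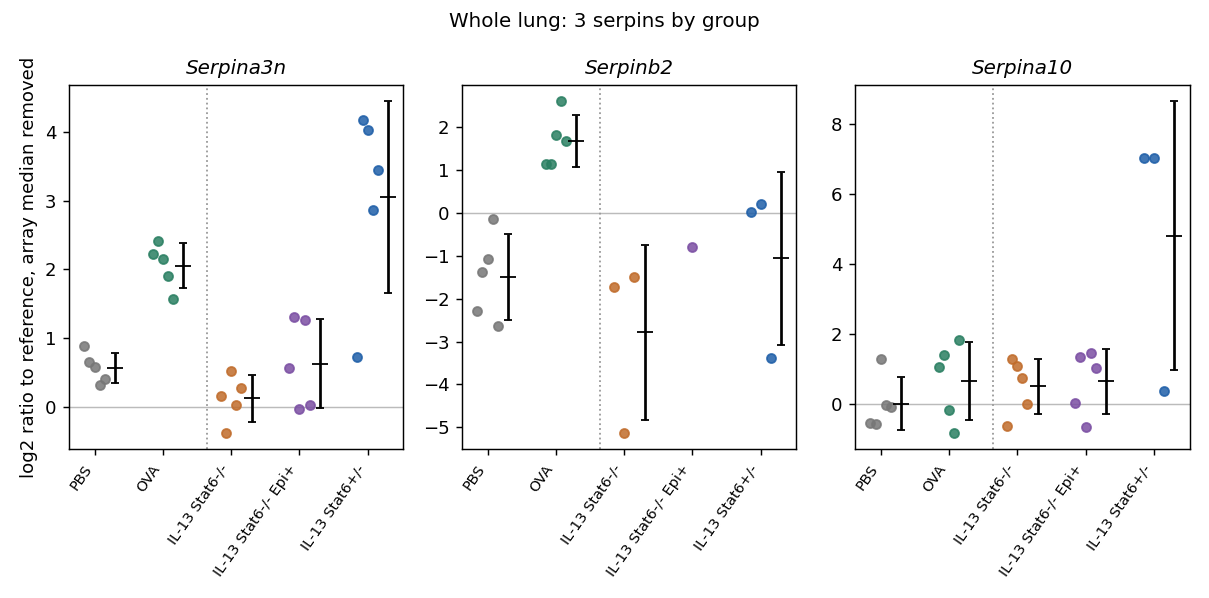
Log2 ratio to the reference, less the array median, for 3 serpins in the 5 whole lung groups. Points are arrays with a value and the bar is the mean with its SD. The dotted line divides OVA and PBS, which have a platform and reference of their own, from the IL-13 groups. In Serpina3n 4 of 5 Stat6+/- arrays lie above 2.8, and in Serpinb2 all OVA arrays lie above all PBS arrays.

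Serpina3n read 0.73, 4.17, 4.03, 2.87 and 3.45 in Stat6+/- lung and 0.16, -0.38, 0.53, 0.02 and 0.27 in Stat6-/- lung. In Epi+ lung it read 0.56, 1.31, -0.03, 1.27 and 0.03. Stat6+/- replicate 1 lay far below its group and within the Epi+ range, though still above every Stat6-/- array. The rise over Stat6-/- was 7.62-fold (2.93 ± 0.51, limma adjusted p = 0.00545), and without replicate 1 the log2 difference was 3.47 (limma adjusted p = 9.8e-05).
The call was lost when arrays with a low Y-linked Eif2s3y signal were marked by a covariate (2.72, adjusted p = 0.11, from 9.8e-05 to 0.112 over 18 alternatives). Such arrays made up 3 of the 5 Stat6-/- and none of the Stat6+/- lungs. The same held in perfusate, with Stat6-/- replicates 10, 11 and 12 and no Stat6+/- array, and there 1 Epi+ array, replicate 16, was low too. With the covariate Serpina5 lost its call in Stat6+/- against Stat6-/- perfusate (adjusted p = 0.188), while Serpinf1 (-1.34), Serpina12 (-1.24), Serpinb12 (1.63) and Serpinb11 (1.63) kept theirs. In whole lung OVA replicates 2 and 5 were low and no PBS lung was. Both calls there held without either one, but each such fit kept the other low array and so left the imbalance in place. Low meant a log2 level under -1.5, and PBS lung replicates 4 and 5 lay close to it, at -1.27 and -1.41.
Serpina3n was also higher in Stat6+/- than in Epi+ lung by 2.56 ± 0.52 (limma adjusted p = 0.0182), 1 of 21 serpins against 3.55% of all features. That call was lost without Epi+ replicate 3 (adjusted p = 0.0523, from 0.000516 to 0.127 over 18 alternatives). Epi+ against Stat6-/- lung gave 0.36 ± 0.52 for Serpina3n, and 0 of 21 serpins were called by limma, with 0 at an unadjusted p under 0.05, against 0.0794% of all features. In these lungs 4 of 6 goblet markers rose with Epi+, among them Clca1 by 6.56 ± 0.62.

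In OVA lung Serpina3n read 2.22, 2.42, 2.15, 1.91 and 1.57, against 0.88, 0.66, 0.58, 0.31 and 0.40 in PBS lung. The groups stood clear of each other, and the rise was 2.81-fold (1.49 ± 0.23, limma adjusted p = 0.0123). The call was lost on uncentred values (1.32, adjusted p = 0.169) and under quantile normalization (0.98, adjusted p = 0.145), with a range from 0.00545 to 0.177 over 16 alternatives. Serpinb2 read 1.15, 1.14, 1.83, 2.60 and 1.68 in OVA lung against -2.28, -1.37, -1.07, -0.13 and -2.65 in PBS lung. It rose 9.09-fold without overlap (3.18 ± 0.48, limma adjusted p = 0.0108, from 0.00414 to 0.177 over 16 alternatives). A block on the replicate number ended this call and that of Serpina3n. Serpina3n and Serpinb2 were the 2 of 24 serpins called, against 1.94% of all features, and the median of the 24 was 0.29, beside 0.03 over all features.
In the IL-13 lungs Serpinb2 had too few values for a test, with 3 in Stat6+/- (0.02, 0.21 and -3.39), 3 in Stat6-/- (-1.74, -5.13 and -1.49) and 1 in Epi+ (-0.79). In perfusate, OVA against PBS gave 0.82 ± 0.36 for Serpinb2 and 0.27 ± 0.38 for Serpina3n, neither called. Serpinb1a, an inhibitor of neutrophil elastase named after its values were seen, read -0.16, 0.00, -0.06, 0.56 and 0.31 in OVA lung and -0.42, -0.87, -0.81, -0.62 and -0.98 in PBS lung. These values did not overlap, yet the difference of 0.87 ± 0.22 missed the threshold (limma adjusted p = 0.0802).

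Some markers of inflammatory cells moved beside Serpina3n and Serpinb2 in whole lung. In Stat6+/- against Stat6-/-, 4 of 5 macrophage markers were higher (Cd68 by 3.12 ± 0.32) and 2 of 10 neutrophil markers, while 3 of 7 endothelial markers were lower. Of 11 mast cell, basophil and eosinophil markers 1 was higher there, with a list median of -0.50. The mean level of the macrophage markers lay between 0.19 and 2.90 in Stat6+/-, between -0.47 and 0.33 in Stat6-/- and between -0.71 and 0.49 in Epi+. In OVA against PBS, 4 of 6 macrophage markers and 3 of 11 mast cell, basophil and eosinophil markers were higher, with the mean macrophage marker level between 1.11 and 2.06 in OVA and between -0.56 and 0.36 in PBS. By limma none of 10 neutrophil markers was called in OVA against PBS, with 2 at an unadjusted p under 0.05. The part of these cell types in the serpin differences was not tested.

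Whether the Stat6 difference itself differed between tissues was tested for the 21 serpins measured in both. For Stat6+/- against Stat6-/-, 2 of 21 were called, against 4.5% of all features, both with the higher difference in whole lung. Of all 650 features called, 459 went the same way. For Serpina3n the perfusate difference was 0.41 ± 0.38 and the whole lung difference 2.93 ± 0.51, apart by -2.52 ± 0.64 (limma adjusted p = 0.0171). For Serpina10, a liver serpin that with protein Z inhibits clotting factor X, they were -0.11 ± 0.42 and 4.25 ± 1.28, apart by -4.36 ± 1.19 (limma adjusted p = 0.0307).
Serpina10 had values on 3 Stat6+/- lung arrays alone, 7.03, 7.02 and 0.38, against -0.61, 1.30, 1.09, 0.76 and 0.02 in Stat6-/- lung and 0.05, 1.36, -0.66, 1.48 and 1.05 in Epi+ lung. The rise thus rests on replicates 1 and 3, while replicate 6 lay within the Stat6-/- range. In whole lung by itself it was not called (limma adjusted p = 0.0892). Without replicate 1, 3 or 6 of Stat6+/- lung too few values were left for a test, and the call was also lost without perfusate Stat6-/- replicate 11, perfusate Stat6+/- replicate 4 or 5, or whole lung Stat6-/- replicate 1 or 6 (adjusted p between 0.056 and 0.064, from 0.0239 to 0.102 over 23 alternatives).

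**Figure D4:**
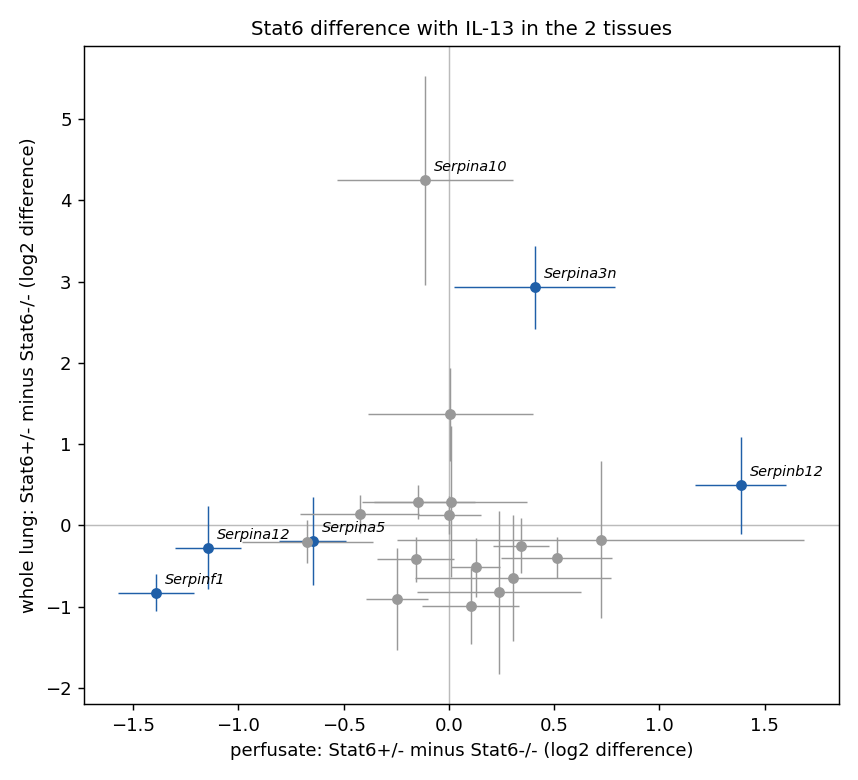
Stat6+/- minus Stat6-/- for the 21 serpins measured in both tissues, as log2 differences in perfusate (horizontal) and whole lung (vertical) with their SE. Serpins called in either tissue are blue and the rest grey. Serpina3n and Serpina10 lie high on the vertical axis and near 0 on the horizontal one, and Serpinb12, Serpina12 and Serpinf1 lie far out on the horizontal one.

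The perfusate serpins were not called in whole lung. Serpinf1 came nearest, at -0.83 ± 0.23 in Stat6+/- against Stat6-/- (limma adjusted p = 0.0538), with levels of 0.26, -0.09, -0.87, -0.61 and -1.83 against 0.78, -0.68, -0.55, 0.67 and 0.80, which overlapped. Serpina12 gave -0.27 ± 0.51, Serpina5 -0.19 ± 0.54 and Serpinb12 0.50 ± 0.60. Serpinb11 was not tested in the IL-13 lungs because Epi+ had 1 value. Its mean was -3.04 over 4 Stat6+/- arrays (-4.13 to -1.93) and -1.28 over 4 Stat6-/- arrays (-2.65 to -0.08). These ranges overlapped, and the means lay in the opposite order to perfusate. For Serpinf1, Serpina12, Serpina5 and Serpinb12 the difference between tissues was not called either, so they are not shown to be particular to perfusate. For Epi+ against Stat6-/-, 0 of 21 serpins differed between tissues by limma, with 1 at an unadjusted p under 0.05, against 0.104% of all features.

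The other 18 serpins were called in no comparison. Among the secreted ones, Serpinc1, the antithrombin of plasma, ran from -1.18 to 0.62 over the perfusate differences and from -0.84 to 0.20 over those of whole lung. Serpind1, heparin cofactor II, ran from -0.66 to 0.30 and from -0.81 to 1.36, and its 2 spots had a correlation of -0.22 over 32 arrays. Serpinf2, the plasmin inhibitor next to Serpinf1 on chromosome 11, stayed within -0.21 and 0.34 in perfusate and within -0.41 and 0.39 in whole lung. Serpina6, the carrier of corticosteroids, ran from -0.26 to 0.32 and from -0.78 to 1.37.
Among clade B, Serpinb6a, an inhibitor of cathepsin G, ran from -0.36 to 0.22 in perfusate and from -0.68 to 0.18 in whole lung. Serpinb5 (maspin), which inhibits no protease, ran from -0.25 to 0.33 in perfusate, and Serpinb8, an inhibitor of furin, from -0.46 to 0.54. Serpinb7, which lies next to Serpinb11 on chromosome 1, ran from -0.44 to 0.98 in perfusate. Serpinb2, beyond it and called in OVA lung alone, ran from -0.54 to 0.82 in perfusate without a call. Serpinh1, the collagen chaperone, ran from -0.63 to 0.71 in perfusate. Serpini1, the neuronal inhibitor of tissue plasminogen activator, ran from -0.44 to 0.14 in perfusate. Serpini2 spread widely within groups, with a difference of 1.68 ± 0.97 for OVA against Stat6+/- perfusate that was not called. Serpina1f, Serpinb1b, Serpinb3a, Serpinb6b and Serpinb6c stayed between -0.58 and 0.90 in perfusate. Serpinb9c had enough values in the whole lung OVA comparison alone, at -0.72 ± 0.57.

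Proteases and other inhibitors were measured beside the serpins. In Stat6+/- against Stat6-/- perfusate, 1 of 37 serine proteases was higher and 2 lower, with a list median of -0.02 beside -0.02 over all features. The tissue plasminogen activator Plat rose by 1.95 ± 0.21 (limma adjusted p = 2.48e-05), and the granzyme Gzmb fell by 1.15 on the log2 scale. Plat also rose in Epi+ against Stat6-/-, by 1.27 ± 0.21. Of 26 inhibitors of other families 1 was higher and 2 lower, and the trypsin inhibitor Spink1 rose by 3.47 ± 0.43, more than any serpin in that contrast. Of 18 cofactors and receptors, the urokinase receptor Plaur rose by 1.45 ± 0.28 and 1 gene was lower. None of 13 cysteine proteases was called by limma in that contrast, with 1 at an unadjusted p under 0.05.
In whole lung 6 of 12 cysteine proteases were higher in Stat6+/- than in Stat6-/- and none lower, with a list median of 1.40 beside -0.04 over all features. Cathepsin K, Ctsk, rose by 4.82 ± 0.37. Of 32 serine proteases 3 were higher and 1 lower, with Corin up by 4.39 ± 0.38 and Gzmb, a target of Serpina3n, lower by a log2 difference of -2.58 ± 0.63. Of 23 other inhibitors 4 were higher and 1 lower, among them the elastase inhibitor Slpi at 1.57 ± 0.31. Of 17 cofactors and receptors, tissue factor F3 rose by 1.49 ± 0.27. In OVA against PBS lung, 3 of 38 serine proteases and 3 of 12 cysteine proteases were higher and none lower.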

How the data were processed

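The authors' deposited values are log2 ratios, 1 per spot and array, of 2-channel arrays. In the sources used here, the scanning, correction, filters and normalization of spots are not given. Perfusate RNA had 1 round of amplification per the labels, which 3 arrays of reference preparation 1.3 do not state. Each array was centred on its median and spots of 1 symbol were averaged. Features with at least 3 values in each group were fitted by least squares on the arrays that had a value, variances were moderated with limma 3.58.1 (R 4.3.3), and p-values were adjusted over all features by the Benjamini-Hochberg method. All groups of a tissue entered 1 fit (OVA and PBS lung a second), with the reference preparation as a block where it crosses groups. The tissue difference came from a further fit of both tissues on the larger platform, with references as blocks within each tissue. The fit was tested on simulated data, and no outcome of that test is given here. Values per array are given for every serpin called in a comparison, though not for all of its groups. The rest are given by their range, and list genes only where called. The cell markers named were picked after their values were seen. The serpins, lists and tests were chosen with earlier results of these data known. Alternatives were other scalings, blocks, filters and left-out arrays. No spot intensities were used, so dim spots were not filtered, and precision is limited by how many arrays there were.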

Additional observations from a re-analysis of the deposited data

Results flagged for a closer look

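Among 91 groups of 4 or 5 arrays examined for the serpins called in any comparison, 2 held an array far from the others, and chance alone marks about 1 in 20 such groups. Serpina9 in whole lung IL-13 Stat6+/- replicate 1 read -5.31, with the other 4 arrays between -0.22 and 0.92. Serpinb12 in whole lung IL-13 Stat6-/- Epi+ replicate 3 read 0.34, with the other 4 between -2.36 and -2.08.

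The Stat6+/- minus Stat6-/- difference differed between perfusate and whole lung for 2 serpins, by -4.36 for Serpina10 and by -2.52 for Serpina3n on the log2 scale (perfusate minus whole lung). The Serpina10 value rests on 2 whole lung arrays.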

How the results depend on the processing

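The 28 called serpin differences kept their direction under all 514 settings tried on them, and kept the call under 410. Settings that left a serpin untested are not among the 514. Where spots were tested apart, Serpinb12 was scored by the spot with the lower adjusted p. The causes of lost calls were not tested. With values as deposited, not centred, the counts of called serpins moved from 5 to 3 (perfusate Stat6+/- against Stat6-/-), 2 to 0 (perfusate Epi+ against Stat6-/-), 4 to 1 (perfusate Epi+ against PBS), 6 to 1 (perfusate OVA against Stat6+/-), 1 to 0 (whole lung Stat6+/- against Epi+), 2 to 1 (whole lung OVA against PBS) and 2 to 0 (tissue difference of the Stat6 contrast); centring shifted the median of all features by 0.12 in the first and by 0.49 in the last. Without the reference block the perfusate counts were 3, 1, 2 and 3 in the same order. With only the 2 groups compared in a fit, which leaves 10 arrays, they were 1, 0, 0 and 0, and 0 for perfusate Stat6+/- against PBS (5) and whole lung Stat6+/- against Epi+ (1). Without preparation 1.3 they were 1 for perfusate Epi+ against Stat6-/-, 3 for OVA against Stat6+/- and 0 for the tissue difference. Quantile normalization gave 1 for whole lung OVA and 0 for the tissue difference. With values on every array the counts were 2 for whole lung Stat6+/- against Stat6-/- and 1 for the tissue difference, and marking arrays of low Eif2s3y gave 0 for the former. Leaving out 1 array gave 4 to 5, 2, 4 to 6, 3 to 4 and 3 to 5 in perfusate (Stat6+/- and Epi+ against Stat6-/-, Stat6+/- and Epi+ against PBS, OVA against Stat6+/-), 1 to 2, 0 to 1 and 2 in whole lung (Stat6+/- against Stat6-/- and Epi+, OVA against PBS) and 1 to 2 for the tissue difference. The comparisons with 0 calls stayed at 0. Whole lung groups share replicate numbers, but same-numbered arrays did not all deviate together. In the IL-13 lungs 7 of 12 such pairs correlated over 0.1 (from -0.58 to 0.40, median 0.12, beside a median of -0.11 over 63 other pairs), and in OVA and PBS lungs 0 of 4 did (from -0.18 to 0.007). The replicate block gave 0 calls for whole lung Stat6+/- against Stat6-/-, Stat6+/- against Epi+ and OVA against PBS, which were 1, 1 and 2 without it. The comparison of OVA with Stat6+/- and the left-out arrays of the tissue difference were chosen after seeing the data.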
